A study of Mus musculus with 24 samples.

Results

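The genes described here carry out or control the making of cholesterol. They are Srebf2 and Insig1, which regulate the pathway, and the enzymes Hmgcs1, Idi1, Fdft1, Sqle, Lss and Dhcr7. All non-control probes that carried 1 of these 8 gene names were taken, which gave 11 probes out of 55681 on the array. Srebf2, Hmgcs1 and Fdft1 had 2 probes each and the other genes had 1. All 11 passed the filter on dim probes, as did 52991 of all probes. No uptake gene is among the 8, so the receptors and transporters that bring sterols into cells are covered below as a separate list.

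The 24 arrays measured lymphoid cells that had been sorted by flow cytometry from mouse thymus or fetal liver and lysed directly. Their RNA was amplified by SuperAmp, a PCR-based whole-transcriptome amplification for small cell numbers, and hybridised in 1 colour (Cy3). The thymus labelled wild type came from mice heterozygous for Foxn1 (+/-), the transcription factor that thymic epithelium needs to support T cell development. It gave DN3 cells (CD4/CD8-negative, stage 3), DP cells (CD4/CD8 double-positive), SP4 cells (CD4 single-positive) and SP8 cells (CD8 single-positive), with 3 arrays each. These groups are written wt DN3, wt DP, wt SP4 and wt SP8. Foxn1-deficient (-/-) thymus, labelled transgenic, gave 4 arrays of DP cells (tg DP) and 2 of B cells without surface IgM (tg B IgM-). Neither the transgenes, nor the promoters that drive them, nor the age of the mice are given in the labels. Wild-type fetal liver gave 3 arrays of B cells without surface IgM (FL B IgM-) and 3 with it (FL B IgM+). The cell type label of the SP4 arrays also names SP8 cells, so their group was taken from the title.

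Nothing in the labels says that arrays of a group came from separate animals, and p-values therefore measure the spread between these arrays, which may be partly technical. Of the wt DP arrays, 2 share a title number, as do 3 of the tg DP arrays. A level below is log2 of the background-corrected spot intensity minus the 75th percentile of its own array, so 0 is the signal of a bright probe on that array. Levels of different probes are not compared with each other, since their brightness depends on the probe. In sorted cells measured in bulk, less RNA per cell and fewer cells that express a gene cannot be told apart.

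The cell labels were checked against fixed markers. Of 9 measured T cell markers, 6 were higher in the 12 wt thymocyte arrays than in the 6 FL B arrays and 1 passed the test (limma, adjusted p = 0.030). Of 9 measured B cell markers, 7 were lower in thymocytes and none passed (limma, smallest adjusted p = 0.20; 4 had an unadjusted p under 0.05). The brightest Cd3e probe, for a chain of the T cell receptor complex, ran against the labels. It lay between 0.27 and 0.66 in thymocytes and between 0.60 and 0.86 in the FL B arrays. Cd79a, a chain of the B cell receptor complex, had a median of -1.52 in thymocytes and 0.0017 in the FL B arrays, but it was between -4.79 and -1.79 in tg B IgM-. The markers of the 2 lineages thus separated the labelled groups only in part. Array tg B IgM- 23 stood apart from all others: 80.5% of its probes were well above background, against 87.4% to 96.6% on the other 23. It lay at 311 on the first principal component, followed by FL B IgM+ 21 at 165 and tg DP 4 at 70.4, while the other 21 arrays lay between -87.3 and 37.1. Named differences that moved by over 1.5 times without 1 of these 3 arrays are given with and without it.

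Cells make cholesterol from acetyl-CoA through a long chain of enzymes, and take it up from lipoproteins. SREBP2, the protein made from Srebf2, is held in the endoplasmic reticulum by Insig proteins when sterols are plentiful. When sterols fall it is released, cut and moves to the nucleus, where it raises transcription of the synthesis enzymes, and of Insig1 and Srebf2 themselves. Lymphocytes that enlarge and divide are known to raise this programme for membrane growth.

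The sequences that bear on the results are those of probes that disagreed about the same gene, and of promoters through which the genes are known to be driven together. The first pair are the more 5′ probes of Srebf2 and Fdft1, of 60 bases each, printed as deposited. The Srebf2 probe starts at base 3011 of the transcript and lies at chr15:82030068-82030127 (mm9, plus strand), and the Fdft1 probe starts at base 1040 and covers chr14:63765750-63769990 (mm9, minus strand). The latter stretch spans 4241 genomic bases, so this Fdft1 probe crosses an exon junction.
Srebf2 A_55_P2000487: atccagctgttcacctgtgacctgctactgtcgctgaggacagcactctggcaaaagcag
Fdft1 A_55_P2033250: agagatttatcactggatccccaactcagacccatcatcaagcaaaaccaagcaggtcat

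Promoters, from 250 bases before to 50 after the start site, were taken from RefSeq (GRCm38.p6) and found for 6 of the 8 genes: Srebf2, Insig1, Hmgcs1, Idi1, Lss and Dhcr7, which had 3. Both strands were searched for TCACCCCAC, the core of a sterol regulatory element, and for its looser form TCACNCCAC, which contains it. The E-box CACGTG, the NF-Y motif CCAAT and the Sp1 motif GGGCGG were searched too. TCACCCCAC was found in 1 of the 6 genes, Hmgcs1, starting 137 bases before the start site, and in 0.551% of 32851 promoters of the same length. TCACNCCAC matched nowhere else in the 6 genes and in 1.24% of all promoters. CACGTG was found in the Insig1 promoter, 101 bases before the start, and in 1 Dhcr7 promoter, against 7.15% of all promoters. CCAAT, present in 37.4% of all promoters, was in at least 1 promoter of each of the 6 genes, as was GGGCGG, present in 35.7%. A count by gene is not the same measure as a share of promoters. Of the Dhcr7 promoters, numbers 1 and 2 held no CCAAT and number 2 held no GGGCGG. These matches are descriptions of letters in a window, not of binding. The Hmgcs1 and Insig1 promoters are shown, since they hold the rarer matches, given in capitals. They lie at chr13:119690101-119690400 and chr5:28071162-28071461, both on the plus strand.
Hmgcs1: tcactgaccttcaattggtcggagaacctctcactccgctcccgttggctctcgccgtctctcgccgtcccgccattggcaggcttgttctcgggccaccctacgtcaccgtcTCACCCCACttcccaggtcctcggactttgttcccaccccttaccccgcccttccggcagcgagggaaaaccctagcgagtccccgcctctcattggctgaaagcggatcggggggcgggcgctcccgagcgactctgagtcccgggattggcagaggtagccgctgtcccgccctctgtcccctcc
Insig1: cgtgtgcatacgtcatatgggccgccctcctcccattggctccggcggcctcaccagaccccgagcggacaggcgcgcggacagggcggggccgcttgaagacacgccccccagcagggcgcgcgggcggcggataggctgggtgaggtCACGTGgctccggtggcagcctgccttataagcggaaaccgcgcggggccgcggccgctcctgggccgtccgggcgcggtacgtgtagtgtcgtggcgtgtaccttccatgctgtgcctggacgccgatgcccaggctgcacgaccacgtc

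Across the 8 groups the sterol genes were detected nearly everywhere and differed little between cell types relative to the spread of their replicates. The moderated F test of limma over the 8 groups called 0 of the 11 probes at an adjusted p under 0.05, against 0.102% of all 52991 probes. The strongest was Dhcr7 (F = 2.54, unadjusted p = 0.053, limma adjusted p = 0.40). The range of the 8 group means had a median of 1.09 over the sterol gene probes and also 1.09 over all probes, in log2 units. The spread within groups had a median SD of 0.66 for the sterol gene probes and 0.57 for all probes. When the groups were ordered by mean, 3 of the 77 steps between neighbouring groups exceeded the larger of their SDs, 1 each for Insig1, Lss and Dhcr7. All other neighbours in those orders did not differ beyond their spread.

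**Figure D1:**
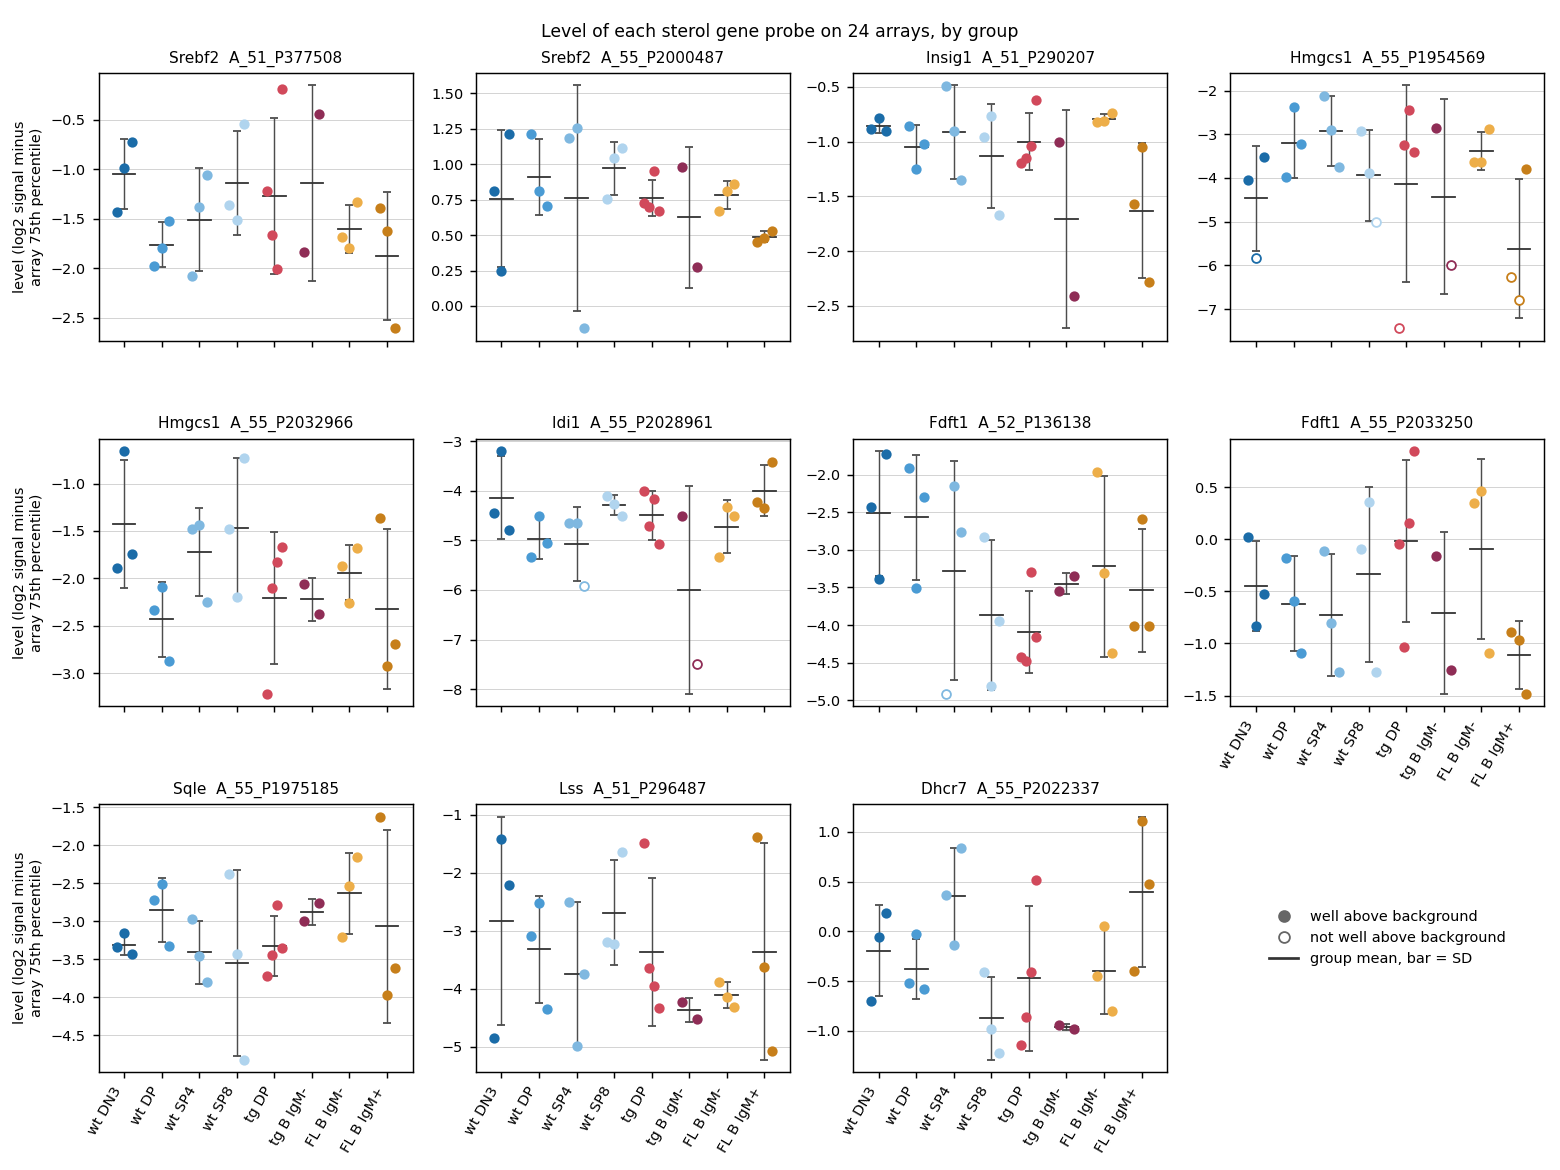
Level of each of the 11 probes (y axis, log2 spot intensity minus the array's 75th percentile) in the 8 groups (x axis); points are arrays, open points were not well above background, horizontal lines are group means and bars are the SD. Most groups overlap; the widest spreads are in Hmgcs1 A_55_P1954569, whose arrays run from -7.44 to -2.13, and in Idi1, from -7.48 to -3.20.

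Srebf2, the gene of the SREBP2 transcription factor, was well above background on all 24 arrays at both probes. At the 5′ probe printed above (A_55_P2000487) the group means ran from 0.49 ± 0.04 (SD, n = 3) in FL B IgM+ to 0.97 ± 0.19 (SD, n = 3) in wt SP8. Its 3 FL B IgM+ arrays read 0.45, 0.48 and 0.53, and its 3 FL B IgM- arrays 0.67, 0.81 and 0.86, so these groups did not overlap. The difference was -0.30 (SE 0.31; limma adjusted p = 0.87). This probe was picked out after its values were seen. The other probe (A_51_P377508), at base 3944 of the same transcript, was highest in wt DN3, at -1.05 ± 0.35 (SD, n = 3), and lowest in FL B IgM+, at -1.88 ± 0.64 (SD, n = 3). It read -1.43, -0.99 and -0.73 in wt DN3 and -1.98, -1.80 and -1.52 in wt DP, so every wt DN3 array was above every wt DP array. Both probes placed FL B IgM+ last among the 8 groups but differed on which group was first.

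Insig1, which holds SREBP2 back when sterols are plentiful, had small spreads in some groups and large ones in others. Its single probe (A_51_P290207, chr5:28404246-28404305, mm9) read -0.82, -0.81 and -0.74 in FL B IgM-, and -0.90, -0.89 and -0.79 in wt DN3. The 4 tg DP arrays read -1.19, -1.15, -1.04 and -0.62 and the 3 wt DP arrays -1.25, -1.02 and -0.86, so their ranges overlapped. The wt SP4 arrays read -1.35, -0.91 and -0.49 and the wt SP8 arrays -1.67, -0.96 and -0.77. The 3 FL B IgM+ arrays read -2.28, -1.57 and -1.05, all below every FL B IgM- array. The 2 tg B IgM- arrays read -2.42 and -1.0, also both below the FL B IgM- arrays. Insig1 was thus even in wt DN3 and FL B IgM-, and its 2 lowest arrays were both in B cell groups.

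The low Insig1 values lay on arrays with few detected probes. The lowest, on tg B IgM- 23, came with 80.5% of all probes well above background. Next were FL B IgM+ 21 (-2.28, with 87.4%), wt SP8 15 (-1.67, with 87.4%) and FL B IgM+ 19 (-1.57, with 88.9%). Low detection did not always go with low Insig1: tg DP 4 had 87.9% and a level of -1.19, and tg DP 6B had 89.7% and -0.62. The part of detection in the Insig1 differences was not tested.

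**Figure D2:**
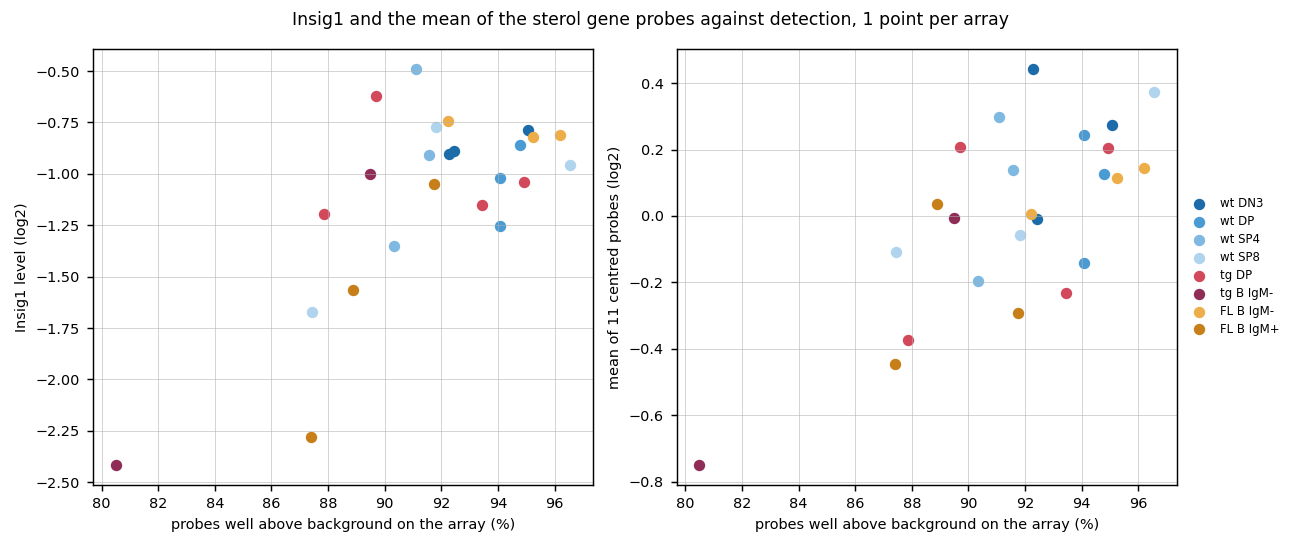
Left, Insig1 level (log2) and right, the mean of the 11 probes, each centred on its own mean over the 24 arrays (log2), against the percentage of all probes well above background on the array; each point is 1 array, coloured by group. Array tg B IgM- 23, at 80.5%, is lowest in both, at -2.42 and -0.75.

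Hmgcs1 makes HMG-CoA, an early intermediate of the pathway. The probe tied to its RefSeq transcript (A_55_P2032966, chr13_random:114793-114852, mm9) was above background on all 24 arrays. Its means ran from -2.43 ± 0.40 (SD, n = 3) in wt DP to -1.43 ± 0.67 (SD, n = 3) in wt DN3. The wt DP arrays read -2.87, -2.33 and -2.09 and the wt DN3 arrays -1.89, -1.75 and -0.66, without overlap. The other probe (A_55_P1954569) lies beside it at chr13_random:114558-114617, but the array's annotation ties it to a cDNA described as the product of another gene, pre B-cell leukemia transcription factor 1. It was well above background on 18 of 24 arrays, and its 6 dim readings, from -7.44 to -5.01, were spread over 5 groups. In FL B IgM+ it was dim on 2 of 3 arrays, at -6.79 and -6.27, and read -3.80 on the other, where the 3 FL B IgM- arrays read -3.64, -3.62 and -2.87. Its group differences therefore mix measured and dim spots.

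Idi1 converts isopentenyl diphosphate to dimethylallyl diphosphate, the starter of the isoprenoid chain. Its probe (A_55_P2028961, chr13:8891524-8891583, mm9) had the largest median scanner error of the 11, 15.5% of the signal, and was well above background on 22 arrays. The means ran from -6.00 ± 2.10 (SD, n = 2) in tg B IgM- to -4.00 ± 0.51 (SD, n = 3) in FL B IgM+. The low mean came from tg B IgM- 23, which read -7.48 and was not well above background, while tg B IgM- 22 read -4.51. The FL B IgM- arrays read -5.33, -4.51 and -4.32, so tg B IgM- 22 fell among them. The wt DP arrays read -5.33, -5.06 and -4.51 and the wt SP8 arrays -4.50, -4.26 and -4.10, which put every wt SP8 array narrowly above every wt DP array.

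Fdft1, squalene synthase, makes the first product that is committed to sterols. Its 3′ probe (A_52_P136138, chr14:63764562-63764621, mm9, from base 2228 of the transcript) read -4.48, -4.42, -4.16 and -3.30 in tg DP and -3.50, -2.29 and -1.91 in wt DP. The wt arrays were mostly higher, but the highest tg array passed the lowest wt array. The junction probe printed above gave the opposite order of means, at -0.02 ± 0.78 (SD, n = 4) in tg DP and -0.62 ± 0.46 (SD, n = 3) in wt DP. At that probe the tg DP arrays read -1.04, -0.04, 0.16 and 0.85 and the wt DP arrays -1.09, -0.60 and -0.18, with overlap. Fdft1 therefore had no single direction between tg DP and wt DP.

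Sqle, squalene epoxidase, adds the first oxygen to squalene. Its probe (A_55_P1975185, chr15:59162688-59162747, mm9) was above background on all arrays and had the least separated groups after the 5′ Srebf2 probe and Lss, with an F of 0.65. The means ran from -3.55 ± 1.23 (SD, n = 3) in wt SP8 to -2.63 ± 0.53 (SD, n = 3) in FL B IgM-. Lss, lanosterol synthase, closes the ring system. Its probe (A_51_P296487, chr10:76015992-76016051, mm9) read -4.85, -2.22 and -1.42 in wt DN3 and -5.08, -3.63 and -1.38 in FL B IgM+, so the arrays of each of these groups spanned more than the whole range of group means, 1.68. Both B cell groups without surface IgM were narrow at Lss, with -4.32, -4.14 and -3.88 in FL B IgM- and -4.52 and -4.22 in tg B IgM-.

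Dhcr7, 7-dehydrocholesterol reductase, carries out a last step to cholesterol. Its probe (A_55_P2022337, chr7:151033874-151033933, mm9) was well above background on all 24 arrays. It read -0.14, 0.36 and 0.84 in wt SP4 and -1.23, -0.98 and -0.41 in wt SP8, and the lowest wt SP4 array was above the highest wt SP8 array. FL B IgM+ had the highest mean, 0.40 ± 0.76 (SD, n = 3), and tg B IgM- the lowest, -0.96 ± 0.03 (SD, n = 2). The 2 tg B IgM- arrays read -0.98 and -0.95, just below the FL B IgM- arrays at -0.80, -0.45 and 0.06.

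The comparison of tg DP with wt DP addressed what a Foxn1-deficient, transgenic thymus does to DP cells. No sterol gene probe passed the test, and neither did any other: limma called 0 of 11 and 0% of all probes at an adjusted p under 0.05. At an unadjusted p under 0.05, 1 of the 11 probes and 3.21% of all probes passed. The 1 was the 3′ Fdft1 probe, 1.52 lower in tg DP on the log2 scale (difference -1.52, SE 0.69, 95% interval -2.97 to -0.08, limma adjusted p = 1). The normexp background corrects the raw spot signal in another way and adds an offset of 50 before the log. The offset by construction shrinks log2 differences between dim spots. With this background the difference was -0.63. With arrays that share a title number averaged it was -1.4, and with slide as a block -1.57, and under each of these 3 settings 0 of 11 had an unadjusted p under 0.05. Its 2.87-fold difference was not shared by the junction probe of the same gene, at 0.60 (SE 0.49, limma adjusted p = 1). Next came the 3′ Srebf2 probe, at 0.49 (SE 0.43, limma adjusted p = 1). Without tg DP 6B, the last 2 differences were 0.31 and 0.13. Of the 11 differences 5 were above 0 and 6 below, with a median of -0.04 against -0.08 over all probes, and with quantile normalization the split was 6 and 5. In 0 of the 11 did the groups not overlap, where 6.5% of all probes had groups apart. The half-widths of the 95% intervals ran from 0.61 for the 5′ Srebf2 probe to 2.20 for Hmgcs1 A_55_P1954569. These intervals are not adjusted for the number of probes. The interval of the 3′ Fdft1 probe left out 0 and the probe still did not pass, so differences larger than the half-widths could also be missed. Slide 2 held all 3 wt DP and 3 of the 4 tg DP arrays, and within it the 3′ Fdft1 difference was -1.41. Those 3 tg DP arrays share 1 title number, as do 2 of the wt DP arrays. Whether arrays with a shared number came from the same cells is not given, so this value may rest on fewer samples than arrays. The array means of the erythroid markers were -2.07 to -1.65 in tg DP and -1.50 to -1.42 in wt DP, without overlap, and their part was not tested.

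The comparison of tg B IgM- with FL B IgM- set thymic B cells of the transgenic mice beside those of wild-type fetal liver, with all 5 arrays on slide 4. Genotype and organ change together here and cannot be told apart. Of the 11 probes 10 were lower in tg B IgM-, with a median difference of -0.28 against -0.27 over all probes. This lean followed the scaling: with quantile normalization the median over all probes was -0.03, and 6 of the 11 probes were higher and 5 lower. None passed the test, against 0.034% of all probes (limma, adjusted p under 0.05), and 1 of 11 had an unadjusted p under 0.05, against 16.5% of all probes. Insig1 was 0.92 lower on the log2 scale (difference -0.92, SE 0.39, 95% interval -1.73 to -0.10, limma adjusted p = 0.26), a 1.89-fold difference. Idi1 came next, at -1.28 (SE 0.67, limma adjusted p = 0.34), then Dhcr7 at -0.57 (SE 0.48, limma adjusted p = 0.55). Without FL B IgM- 17 the Dhcr7 difference was -0.34, and with median scaling -0.27. The groups did not overlap for Insig1 and Dhcr7, which is 2 of 11 probes, where 33.4% of all probes had groups apart. Markers of other cells and of B cells were lower in tg B IgM-, as was the median over all probes, and the hepatocyte markers overlapped. The B cell markers themselves were at -1.0 to -0.32 in tg B IgM- and -0.15 to 0.55 in FL B IgM-. The array means of the hepatocyte markers were -2.57 to -1.70 in tg B IgM- and -1.83 to -0.98 in FL B IgM-, and those of the erythroid markers -2.67 to -2.11 and -2.06 to -1.44. The myeloid markers were at -0.71 to -0.25 and -0.13 to 0.24, the thymic epithelial markers at -1.53 to -0.95 and -0.79 to -0.57, and the proliferation markers at -2.46 to -1.80 and -1.52 to -1.30. Of the 9 or 10 genes measured per list, Tfrc, S100a8, Prss16, Mcm2 and Pcna were not well above background on either tg B IgM- array, and none was dim throughout FL B IgM-. The part of these cells and of overall brightness in the sterol gene values was not tested.

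This comparison turned on which of the 2 tg B IgM- arrays was used. Without array 23, the Insig1 difference was -0.21 (limma adjusted p = 0.91) and that of Idi1 turned to 0.21 (limma adjusted p = 0.95). Without array 22, Insig1 was at -1.62 and passed (limma adjusted p = 0.015), in a fit that called 7981 probes in all, against 18 with both arrays. Array 23 then stood alone and was assumed to vary like the other groups. For Idi1 no measured difference was left without array 22, because the spot on array 23 was not well above background. The Idi1 difference with both arrays also rests on that dim spot, and it was 0.09 with the normexp background.

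Between tg B IgM- and FL B IgM- genotype and organ change together, so a transgenic effect on B cells cannot be told apart from one of organ. An interaction contrast set the difference between tg DP and wt DP against that between tg B IgM- and FL B IgM-. It called 0 of 11 sterol gene probes and 0.00566% of all probes (limma, adjusted p under 0.05), and 0 of 11 at an unadjusted p under 0.05, against 9.23% of all probes. By the moderated statistic Idi1 came first, with a contrast of 1.75 (SE 0.87, limma adjusted p = 0.56). Insig1 followed at 0.96 (SE 0.51, limma adjusted p = 0.58) and the Fdft1 junction probe at 1.22 (SE 0.76, limma adjusted p = 0.63). The 3′ Fdft1 probe went the other way, at -1.29 (SE 1.07, limma adjusted p = 0.72). Without array tg B IgM- 23 the differences were 0.27 for Idi1, 0.26 for Insig1 and 0.67 for the Fdft1 junction probe (limma adjusted p = 0.98, 0.96 and 0.94), and without the 3 arrays that stood apart 0.11, 0.32 and 0.68. With the normexp background Idi1 was at 0.18. With array 23 as the only tg B IgM- array Insig1 was at 1.67 (limma adjusted p = 0.048), in a fit that called 4193 probes, against 3 with both arrays. The Idi1 contrast then rests on the dim spot named above.

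**Figure D3:**
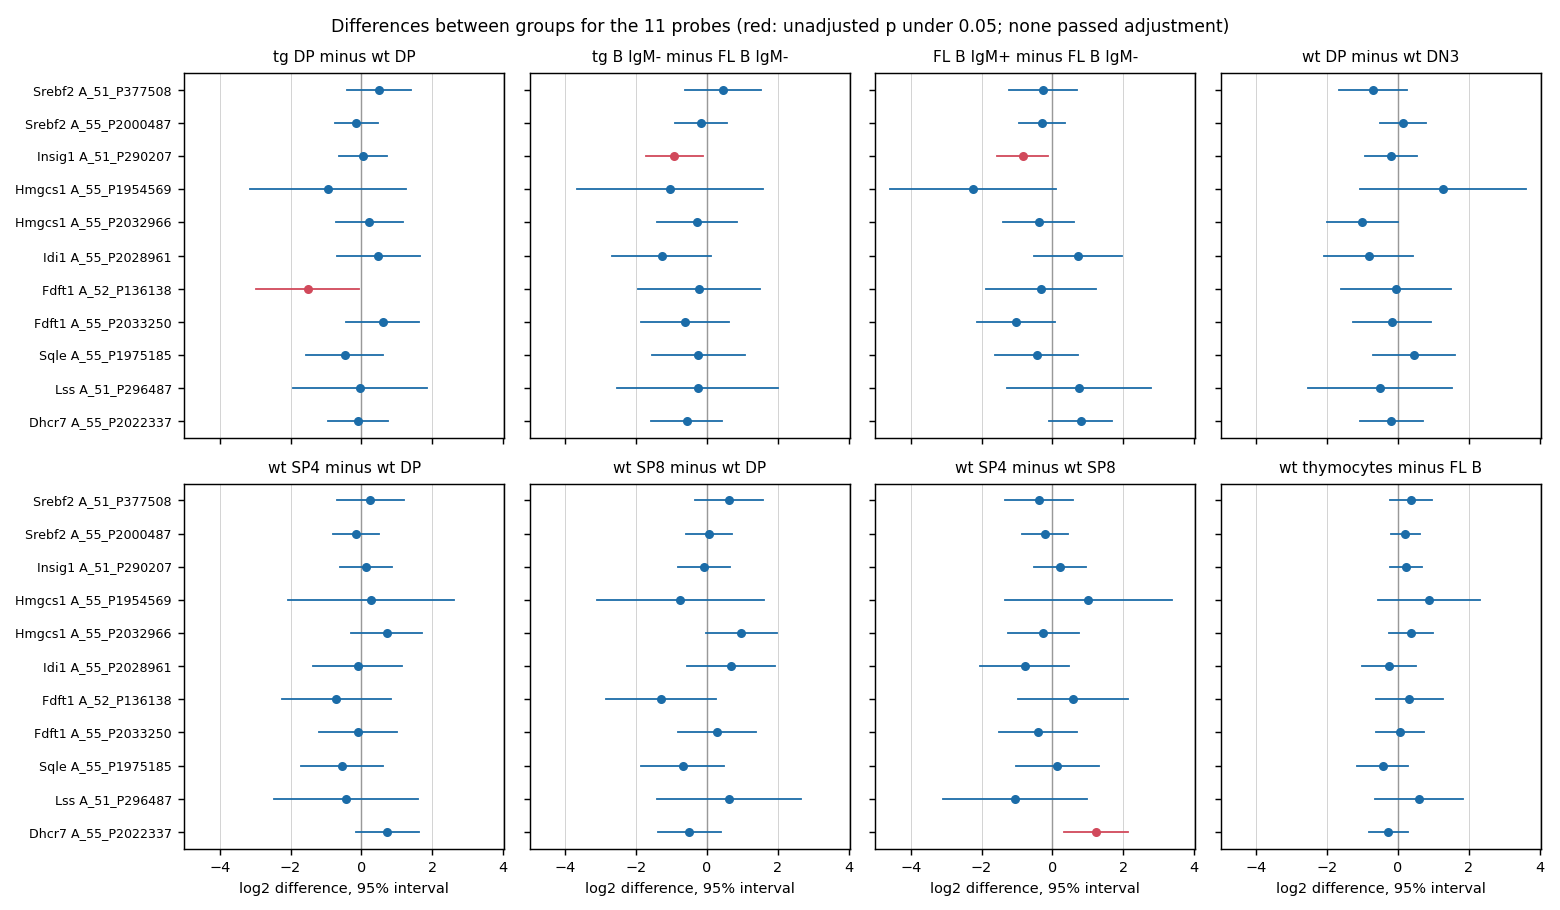
Difference between the named groups (x axis, log2) for each of the 11 probes (y axis) in 8 comparisons; points are estimates of the limma fit, lines their 95% intervals, and red marks an unadjusted p under 0.05. Red points are Fdft1 A_52_P136138, Insig1 in 2 comparisons, and Dhcr7; none had an adjusted p under 0.05.

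Between fetal liver B cells with and without surface IgM, limma called 0 of the 11 probes and 0% of all. At an unadjusted p under 0.05, 1 of 11 passed, against 7.41% of all probes. Insig1 was 0.84 lower in FL B IgM+ (difference -0.84, SE 0.35, 95% interval -1.57 to -0.11, limma adjusted p = 0.61). Without FL B IgM+ 21, the array with its lowest value, the difference was -0.52 (limma adjusted p = 0.93). The Hmgcs1 probe A_55_P1954569, dim on 2 of the 3 FL B IgM+ arrays, was at -2.24 (SE 1.12, limma adjusted p = 0.69). That value was -0.59 with the normexp background, -1.65 without FL B IgM+ 20 and -3.15 without FL B IgM+ 21. The Fdft1 junction probe was at -1.02 (SE 0.52, limma adjusted p = 0.70), and at -0.83 without FL B IgM+ 21. Of the 11 probes 8 were lower in FL B IgM+, with a median of -0.32 against -0.18 over all probes. With quantile normalization 7 were lower, and the medians were -0.08 and -0.03. The groups were apart for 3 of 11, which were Insig1, Hmgcs1 A_55_P1954569 and the 5′ Srebf2 probe, where 14.1% of all probes had groups apart. The array means of the thymic epithelial markers were -1.14 to -1.02 in FL B IgM+ and -0.79 to -0.57 in FL B IgM-, and those of the proliferation markers -1.79 to -1.54 and -1.52 to -1.30, also without overlap. Of these 19 genes only Prss16 was dim on all FL B IgM+ arrays. The part of these markers in the Insig1 difference was not tested.

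Along thymocyte development, wt DP was first compared with wt DN3. Limma called 0 of 11 and 0% of all probes, and 0 of 11 had an unadjusted p under 0.05, against 2.05% of all. The RefSeq Hmgcs1 probe was lower in wt DP (difference -1.0, SE 0.48, 95% interval -2.01 to 0.0059, limma adjusted p = 1.0), ahead of the 3′ Srebf2 probe at -0.71 (SE 0.46, limma adjusted p = 1.0) and Idi1 at -0.82 (SE 0.60, limma adjusted p = 1.0). Without wt DN3 8 the Hmgcs1 difference was -0.61 and that of Idi1 -0.35, and with the normexp background Idi1 was at -0.34. The first 2 of these, 2 of 11, had groups apart, where 11.8% of all probes did. Of the 11 probes 8 were lower in wt DP, with a median of -0.18 against 0.04 over all probes. The twin probes of Hmgcs1 and Srebf2 lay on the other side of 0. Only 1 of the 3 wt DN3 arrays shared a slide with wt DP. The T cell markers had array means of -0.40 to -0.10 in wt DP and 0.05 to 0.72 in wt DN3, and their part was not tested.

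Mature thymocytes were then compared with wt DP. Between wt SP4 and wt DP limma called 0 of 11 and 0% of all probes; 0 of 11 had an unadjusted p under 0.05, against 6.42% of all, and 0 of 11 had groups apart, against 15.2% of all. The strongest were Dhcr7 at 0.73 (SE 0.43, limma adjusted p = 0.85), the RefSeq Hmgcs1 probe at 0.71 (SE 0.48, limma adjusted p = 0.89) and Sqle at -0.55 (SE 0.56, limma adjusted p = 0.95). With the normexp background the latter 2 were at 0.42 and -0.36, and without wt SP4 12 Sqle was at -0.36. The B cell markers had array means of -0.91 to -0.80 in wt SP4 and -0.58 to -0.43 in wt DP, and the erythroid markers -2.38 to -2.01 and -1.50 to -1.42. Between wt SP8 and wt DP limma called 0 of 11 and 0% of all probes, and 0 of 11 had an unadjusted p under 0.05, against 2.29% of all. The RefSeq Hmgcs1 probe was at 0.97 (SE 0.48, 95% interval -0.04 to 1.97, limma adjusted p = 1.0), the 3′ Fdft1 probe at -1.29 (SE 0.73, limma adjusted p = 1.0) and the 3′ Srebf2 probe at 0.62 (SE 0.46, limma adjusted p = 1.0). Without wt SP8 15 the Hmgcs1 difference was 0.60 and that of Srebf2 0.33, and without wt SP8 14 that of Fdft1 was -0.82. With the normexp background Hmgcs1 was at 0.60 and Fdft1 at -0.52. The groups were apart for the latter Srebf2 probe and for Idi1, picked out after its values were seen, 2 of 11, where 10.9% of all probes had groups apart. These comparisons and the one with wt DN3 share the wt DP arrays. Neither SP group shared a slide with wt DP, so slide and cell type cannot be told apart from these arrays alone. A fit with slide as a block links the slides only through other groups. In that fit Sqle was at -0.35 between wt SP4 and wt DP. Between wt SP8 and wt DP the 3′ Fdft1 probe was at -0.48 and the 3′ Srebf2 probe at 0.29. The other differences named here did not move by over 1.5 times in it.

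Between the CD4 and CD8 single-positive cells, limma called 0 of 11 and 0% of all probes. At an unadjusted p under 0.05, 1 of 11 passed, against 5.18% of all probes. Dhcr7 was higher in wt SP4 by 1.23 (SE 0.43, 95% interval 0.33 to 2.12, limma adjusted p = 0.80), a 2.34-fold difference. It kept its direction within slide 3, which held 2 wt SP4 and 3 wt SP8 arrays, at 1.47. Idi1 followed at -0.79 (SE 0.60, limma adjusted p = 1.0) and Lss at -1.06 (SE 0.97, limma adjusted p = 1.0). Without wt SP4 12, whose Idi1 spot was dim, Idi1 was at -0.36, and with the normexp background at -0.23. Over the left-out arrays Lss ranged from -1.68 without wt SP4 10 to -0.44 without wt SP4 11, and it was -0.54 without wt SP8 15. Dhcr7 and Idi1 had groups apart, 2 of 11, where 10.7% of all probes did. So did the array means of 3 marker lists, all lower in wt SP4: erythroid (-2.38 to -2.01 against -1.62 to -1.20), thymic epithelial (-0.80 to -0.70 against -0.67 to -0.24) and proliferation (-1.55 to -1.45 against -1.37 to -1.20). Their part in the Dhcr7 difference was not tested.

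The 12 wt thymocyte arrays were last set against the 6 FL B arrays. Limma called 0 of 11 sterol gene probes and 0.0491% of all, and 0 of 11 had an unadjusted p under 0.05, against 12.0% of all. The 3′ Srebf2 probe was at 0.37 (SE 0.28, limma adjusted p = 0.64), Hmgcs1 A_55_P1954569 at 0.87 (SE 0.68, limma adjusted p = 0.67) and the RefSeq Hmgcs1 probe at 0.37 (SE 0.29, limma adjusted p = 0.67). All 3 turned below 0 with slide as a block, at -0.17, -0.15 and -1.28. Without FL B IgM+ 21 the first 2 were at 0.19 and 1.32, and the RefSeq Hmgcs1 probe was at 0.61 without FL B IgM+ 19 and 0.22 without FL B IgM+ 20. Thymocytes and FL B arrays met only on slide 1, which held 1 array of each. In 0 of 11 were the groups apart, against 0.323% of all probes.

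Probes of the same gene name did not follow each other over the 24 arrays. For Srebf2 the Pearson correlation was -0.21 (permutation p = 0.33) and Spearman's rho -0.25 (permutation p = 0.24). For Hmgcs1 they were 0.20 (permutation p = 0.35) and 0.27 (permutation p = 0.20), and for Fdft1 -0.02 (permutation p = 0.91) and 0.02 (permutation p = 0.94). After Benjamini-Hochberg adjustment over the 3 pairs, these permutation p-values ran from 0.52 to 0.91 for Pearson's r and from 0.35 to 0.94 for Spearman's rho. Leaving out the 2 arrays farthest from the median of the first probe gave r of -0.32, -0.26 and 0.02. The 2 probes took the same sign in 4, 4 and 5 of the 8 comparisons. A statement about Srebf2 or Fdft1 as a gene therefore depended on the probe. For Hmgcs1 this cannot be said. Its probe A_55_P1954569 was well above background on only 18 of 24 arrays and is tied to a cDNA described as the product of another gene.

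**Figure D4:**
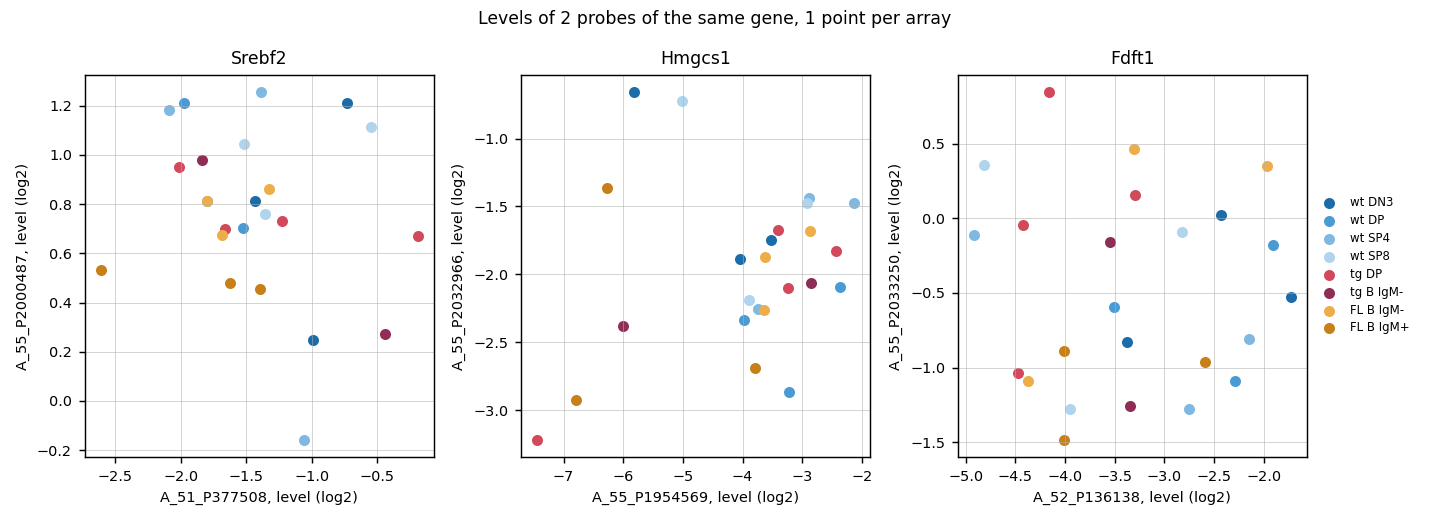
Level (log2) of 1 probe against the other probe of the same gene name for Srebf2, Hmgcs1 and Fdft1. Each point is 1 of 24 arrays, coloured by group. The Hmgcs1 probe A_55_P1954569 is tied to a cDNA described as the product of another gene. The points show no common trend, with Pearson's r of -0.21, 0.20 and -0.02.

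Nor did the 11 probes move as 1 block. Probes of the same gene name did not follow each other either, so whether the genes moved together cannot be judged from these correlations. Over the 55 pairs of the 11 probes, the median Pearson correlation across 24 arrays was 0.05, and 32 pairs were above 0. These pairs include those of the same gene name. Arrays share their amplification and detection, so these are descriptions. The highest was between Insig1 and the Fdft1 junction probe, 0.64, and it was 0.60 without the 3 arrays that stood apart. The lowest was between Hmgcs1 A_55_P1954569 and Lss, -0.43. Without those 3 arrays the median over the pairs was -0.01.

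The mean of the 11 probes, each centred on its own mean, was highest in wt DN3, at 0.24 ± 0.23 (SD, n = 3). It was lowest in tg B IgM-, where it read -0.75 on array 23 and -0.01 on array 22, and in FL B IgM+, at -0.23 ± 0.25 (SD, n = 3). By group, wt DP, wt SP4, wt SP8 and FL B IgM- lay between 0.07 and 0.09 and tg DP at -0.05. Single arrays at the top were wt DN3 9 (0.44) and wt SP8 13 (0.37), and at the bottom tg B IgM- 23 (-0.75), FL B IgM+ 21 (-0.44) and tg DP 4 (-0.37). The 3 lowest arrays were the 3 that stood apart on the first principal component.

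Named genes whose level was most like this mean over the 24 arrays, among 33457 gene names with their brightest probe, were Tnpo1 (Pearson's r = 0.85), Olfr695 (0.84), Gm8672 (0.82), Klrb1f (0.82), Cfap20dc (0.81), Dcpp1 (0.80) and Nlrp12 (0.80). Without the 3 arrays that stood apart, the correlations of the 10 most alike probes were between 0.55 and 0.72, and 0 of the 10 remained among the 10 highest. No other sterol gene of the fixed lists was among them.

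The rest of the pathway was followed in 54 further genes, with 1 probe each, its brightest. They comprised 17 other synthesis enzymes, 7 regulators of SREBP, 11 genes of sterol uptake and transport, 8 of sterol efflux and the LXR response and 11 of fatty acid synthesis linked to SREBP. Limma called 0 of the 54 in each of the 8 comparisons, and between 1 and 7 had an unadjusted p under 0.05. The 7 were 13.0% of the genes in tg B IgM- against FL B IgM-, where 16.5% of all probes had such a p, and in wt thymocytes against FL B, where 12.0% had. The other 6 comparisons gave 1.85% to 9.26% of the genes, beside 2.05% to 7.41% of all probes. In tg B IgM- against FL B IgM-, 11 of the 54 were higher and the median was -0.34, beside -0.27 over all probes. In wt thymocytes against FL B, 36 of the 54 were higher and the median was 0.09, beside 0.07 over all probes.

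Among the other synthesis enzymes, the lowest adjusted p was at Msmo1, a sterol C4-methyl oxidase. It was at -4.30 ± 0.05 (SD, n = 2) in tg B IgM- and -2.01 ± 0.72 (SD, n = 3) in FL B IgM-, a difference of -2.29 (SE 0.63, limma adjusted p = 0.13). Cyp51, lanosterol demethylase, was at -6.21 ± 1.67 (SD, n = 3) in FL B IgM+ and -4.20 ± 0.83 (SD, n = 3) in FL B IgM- (difference -2.01, SE 0.73, limma adjusted p = 0.57). It was dim on 2 of the 3 FL B IgM+ arrays, and the difference was -1.05 without FL B IgM+ 21. Fdps, farnesyl diphosphate synthase, was at -3.37 ± 1.81 (SD, n = 2) in tg B IgM- and -1.66 ± 0.25 (SD, n = 3) in FL B IgM- (difference -1.71, SE 0.59, limma adjusted p = 0.19). Its 2 tg B IgM- arrays read -2.10 on array 22 and -4.65 on array 23, and without array 23 the difference was -0.43.

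Among the uptake genes, Vldlr, a lipoprotein receptor, was at -3.64 ± 0.51 (SD, n = 4) in tg DP and -2.51 ± 0.45 (SD, n = 3) in wt DP (difference -1.13, SE 0.42, limma adjusted p = 1). Among the regulators, Mbtps1, the protease that makes the first cut in SREBP, read -2.32 and -3.39 in tg B IgM- and -1.37, -0.71 and -0.09 in FL B IgM- (difference -2.13, SE 0.66, limma adjusted p = 0.16), and without array 23 the difference was -1.60. None of these passed the test.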

How the data were processed

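Gene expression was measured on 24 Agilent 1-colour arrays. Per the file headers, the deposited spot intensity values were background-corrected by Agilent Feature Extraction; the RNA was amplified by SuperAmp, per the labels' protocols, which can widen the spread between arrays. Here log2 of the processed intensity minus each array's 75th percentile was used, leaving out non-uniform spots and averaging spots of a probe. The authors' deposited value table, on a log2 scale with no stated normalization, was an alternative. A probe was kept if all arrays of some group had it well above background (95.2%). Groups were compared by limma 3.58.1 in R 4.3.3, with 1 fit of 8 group means over all kept probes and Benjamini-Hochberg adjustment; called means an adjusted p under 0.05. The fitting was tested on simulated data. Groups are called apart when every array of 1 lies above every array of the other. Slides were read from the array barcodes. Printed for each comparison are the 3 sterol gene probes with the strongest moderated statistic, those with groups apart in the transgenic comparisons, and up to 3 genes of the pathway lists. The genes, lists and tests were chosen with earlier results of these data known. Other scalings, background, filter, weights, slide block and left-out arrays were tried. The number of arrays limits the precision. Marker lists for T cells, B cells, hepatocytes, erythroid cells, myeloid cells, thymic epithelium and proliferation were set beside the comparisons, and are given where their array means did not overlap, and for hepatocytes beside the transgenic B cells. Some genes of the pathway lists are not reported here by name.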

Additional observations from a re-analysis of the deposited data

How the results depend on the processing

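No paired analysis was possible because the groups share no replicate numbers. The count of sterol gene probes called by limma was 0 in every comparison under every other scaling, background correction, filter, weighting and slide setting that was run, and without the 3 arrays that stood apart, which was chosen after seeing the data. Leaving out 1 array at a time, it ranged from 0 to 2 for tg B IgM- minus FL B IgM-, from 0 to 2 for the difference between the transgenic effects in DP and B cells, and from 0 to 1 for differences among the 8 groups; the higher values came without tg B IgM- replicate 22, when Idi1 in tg B IgM- minus FL B IgM- came to -2.76, a value that rests on 1 spot not well above background. Of the recomputed values of named differences, 6 changed sign, all of them with an adjusted p above 0.6 there. Idi1 in tg B IgM- minus FL B IgM- was 0.09 with the normexp background, 0.21 without replicate 23 and 0.21 without the 3 arrays. With slide as a block, wt thymocytes minus FL B was -0.17 for Srebf2 A_51_P377508, -0.15 for Hmgcs1 A_55_P1954569 and -1.28 for Hmgcs1 A_55_P2032966. Another 473 recomputed values of named differences kept their sign and their side of the threshold, and 4 passed it without tg B IgM- replicate 22. Of the 27 named differences, 23 moved by over 1.5 times under some setting, 12 of them with the normexp background. That background adds an offset of 50 before the log, which by construction shrinks log2 differences between dim spots. How much of each move came from the offset was not tested. In tg DP minus wt DP, 0 of 11 had an unadjusted p under 0.05 in 6 of 10 settings and in 5 of 7 fits without 1 array, against 1 with all arrays. Over all probes, the settings other than leaving out 1 array called 0 to 97 in tg B IgM- minus FL B IgM-, 4 to 142 in wt thymocytes minus FL B, 0 to 51 in wt SP4 minus wt DP, 0 to 9 in FL B IgM+ minus FL B IgM-, 0 to 8 in tg DP minus wt DP, 0 to 3 in wt SP4 minus wt SP8, and 11 to 116 among the 8 groups; leaving out 1 array gave up to 7981, 193, 3, 16, 0, 4 and 3846. Spots near background limit Hmgcs1 A_55_P1954569 and Idi1 most.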
